A study of Homo sapiens with 27 samples.

Results

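The data describe the ADAM, ADAMTS and ADAMTSL genes of U2OS cells, a human osteosarcoma line, while the cells grew from a sparse to an overgrown culture with or without depletion of the matrix metalloproteinase MMP-2. The genes are all symbols of the count files that read ADAM, ADAMTS or ADAMTSL followed by a number and nothing else. They number 46 of the 55882 symbols: 22 ADAM, 19 ADAMTS and 5 ADAMTSL genes. A further 18 symbols start with ADAM but carry other endings and were left out. mRNA-seq libraries came from 3 stable lines that all carry the pLKO.1 lentiviral vector and puromycin selection: the control line, labelled WT, with the blank vector, and the lines MMP2KD_23 and MMP2KD_26, here MMP2sh1 and MMP2sh2, with different short hairpins against MMP2. Each line was sampled 2 days before confluence (day −2, labelled Proliferating and plated at 30% confluence), at confluence (day 0) and 2 days past it (day +2), with 3 libraries in each of the 9 groups and 27 in all. Each genotype is a single stable line, and all 3 lines share the vector and its selection.

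ADAM proteins are membrane-anchored metalloproteinases that cut other membrane proteins near the cell surface and so release growth factors, cytokines and receptor fragments, a reaction called shedding. Some family members have lost the zinc-binding catalytic site and act as adhesion or receptor proteins. ADAMTS proteins are secreted relatives with thrombospondin repeats that work in the extracellular matrix, where they trim procollagens, cut large proteoglycans or bind fibrillin microfibrils, and ADAMTSL proteins keep the thrombospondin repeats but have no protease domain. Bone-forming cells, the lineage from which osteosarcoma arises, build and remodel a collagen-rich matrix in which these enzymes act.

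Of the 46 genes, 29 have an entry in the RefSeq promoter table (GRCh38.p14), among them 6 of the 12 genes that changed at least 2-fold in the expansion of all 3 lines. The promoters of ADAMTS14 and ADAM12 are shown because, of those 6, ADAMTS14 rose farthest and ADAM12 was the gene that fell. Each run is the 250 bases before the annotated start, 5′ to 3′ in the direction of the gene, and capitals mark matches to the GC box, GGGCGG or its reverse complement CCGCCC, the core letters bound by SP family factors. The ADAMTS14 run lies at chr10:70672256-70672505 on the plus strand and the ADAM12 run at chr10:126388478-126388727 on the minus strand.
ADAMTS14: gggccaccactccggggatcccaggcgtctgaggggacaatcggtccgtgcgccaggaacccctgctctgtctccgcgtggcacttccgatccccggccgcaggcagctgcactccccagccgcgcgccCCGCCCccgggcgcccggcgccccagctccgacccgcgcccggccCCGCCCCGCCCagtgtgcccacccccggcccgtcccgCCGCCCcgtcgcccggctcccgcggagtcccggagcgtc
ADAM12: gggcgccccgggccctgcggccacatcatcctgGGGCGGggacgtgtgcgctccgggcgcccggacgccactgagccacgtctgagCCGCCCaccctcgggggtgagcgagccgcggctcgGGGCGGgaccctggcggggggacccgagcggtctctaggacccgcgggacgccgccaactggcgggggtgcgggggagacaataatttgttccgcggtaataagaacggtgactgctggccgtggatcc
The ADAMTS14 run holds 4 matches, of which a pair overlaps by a single C, and the ADAM12 run holds 3. The other promoters present hold 7 matches for ADAMTS7, 5 for ADAMTS10, 2 for ADAMTS13 and 1 for ADAMTS17. All 6 promoters present hold the motif, and ADAM12 is the only gene among them that fell. Among all 35116 promoters of the table, 42.6% hold it. The share of G and C was 80.4% for ADAMTS14 and 73.6% for ADAM12 against a median of 58% over the table. These matches are letters in a window and not evidence of binding.

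Expression was counted as reads per gene in poly(A)-selected mRNA, and levels are given as CPM, the reads of a gene relative to all gene reads of its library, after scaling by the trimmed mean of M-values (TMM) over the 27 libraries. Gene totals ran from 33580129 to 59374327 reads per library with a median of 40075178. MMP2, the targeted gene, was lower than in control in both lines at all 3 days, its log2 changes being −2.53, −2.47 and −2.34 (MMP2sh1, in order of day) and −0.70, −1.06 and −0.82 (MMP2sh2), each past the threshold of the edgeR test. Of the bone-lineage markers, COL1A1, SPARC and RUNX2 were high in every library, with lowest levels of 1017, 1166 and 29.9 CPM, whereas COL1A2, BGLAP and SP7 reached at most 0.681, 0.573 and 0.166 CPM, ALPL ran from 0.396 to 6.96 CPM and IBSP had no read. Markers of blood and muscle cells stayed at or below 1.43 CPM. Of the epithelial markers EPCAM, KRT14, CDH1 and KRT5 reached 6.72, 13, 2.5 and 1.11 CPM, of the endothelial markers VWF and CDH5 4.73 and 0.608 CPM, and of the melanocyte markers MITF and PMEL 17.4 and 2.08 CPM, and their part in the results was not tested. The 3 libraries of a group are described in the study as independent biological replicates. The p-values set differences between groups against the spread between these libraries, and they do not cover the spread between separately made lines.

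The U2OS cells expressed a broad set of these proteinases, led by membrane-anchored ADAMs. Over the 27 libraries 5 genes exceeded 10 CPM per kilobase of transcript (RPKM), 18 lay between 1 and 10, and 23 lay under 1. ADAM9, a broadly expressed sheddase, had the highest mean level at 55.6 RPKM (range 37.8 to 70.3), followed by ADAM19, which sheds neuregulins, at 28.1 (21.6 to 36.2) and ADAM15 at 27.4 RPKM (21.5 to 36.1). The ranges of ADAM19 and ADAM15 overlap almost entirely, so their order is not resolved. ADAMTS12, which cuts the cartilage protein COMP, came next at 15.5 RPKM (9.90 to 19.8), and its range overlapped that of ADAM10, the sheddase of Notch receptors and N-cadherin, at 12.7 RPKM (10.5 to 14.7). These 5 genes made up 65.5 to 70.0% of the summed RPKM of the 46 genes. ADAM17, the sheddase of tumour necrosis factor and of many epidermal growth factor receptor ligands, followed at 9.06 RPKM. Reads in the 30.1% of its exon bases shared with the neighbouring gene IAH1 could not be assigned to it. This level may therefore be too low, and its place below ADAM10 and below 10 RPKM is uncertain. The order depends on the length used: per kilobase of all annotated exons, ADAM19 led with 23.7, ADAMTS12 followed with 13.8, ADAM9 had 12.9, and ADAM17 was 13th.

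At the other end, ADAM2, ADAM6 and ADAM30 had no read in any library. ADAM5, ADAM7, ADAM18, ADAM29, ADAM33, ADAMTS4 and ADAMTS18 had 12 to 104 reads over all 27 libraries together and, like the first 3, never passed the filter on low counts. The remaining 36 genes were tested in at least 1 of the 17 comparisons, 32 of them in all 17. ADAM20, ADAM21, ADAMTS19 and ADAMTS20 entered 4, 12, 12 and 14 comparisons. ADAM2, ADAM7 and ADAM18 belong to the group best known from testis and epididymis, and ADAMTS4 is an aggrecan-cutting enzyme of cartilage.

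**Figure D1:**
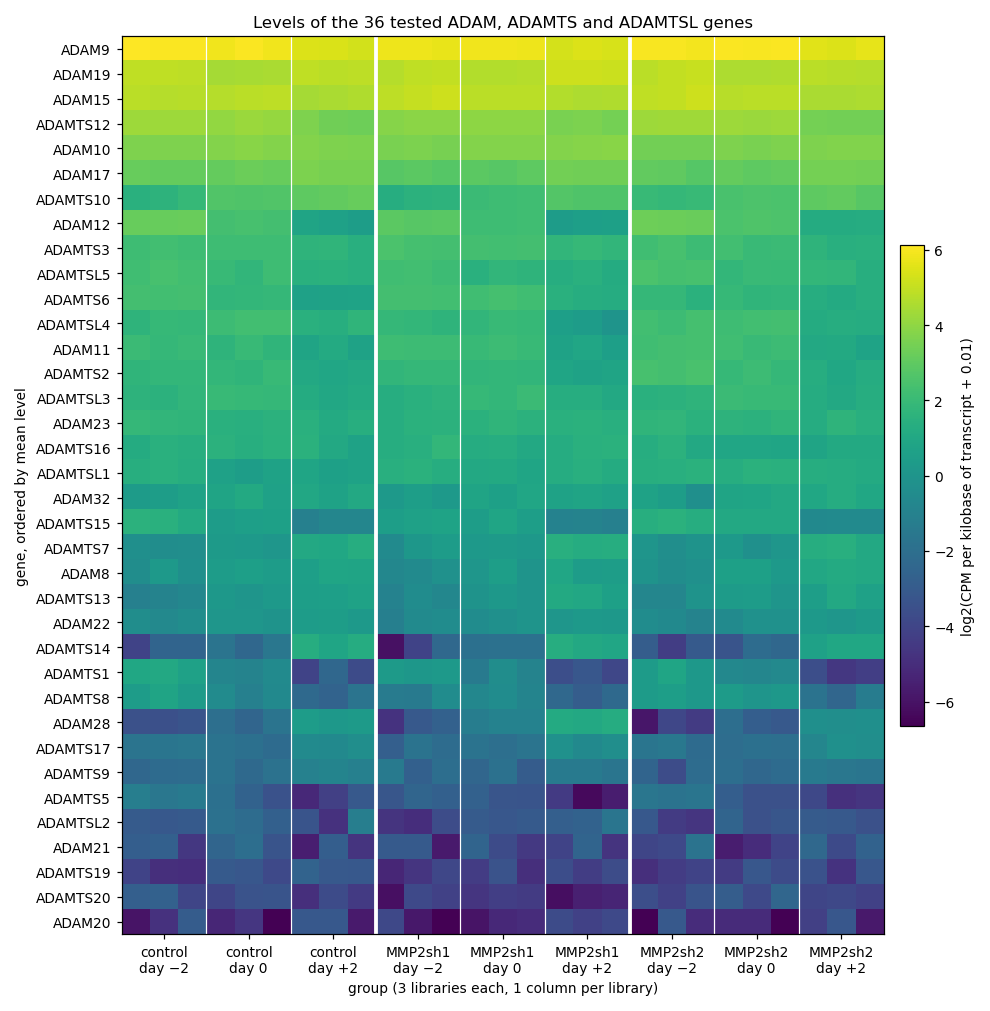
Heat map of the level of each of the 36 tested genes in each of the 27 libraries, as log2 of CPM per kilobase plus 0.01, with libraries across by line and day and genes down by mean level, and brighter colours for higher levels. ADAM9, ADAM19, ADAM15, ADAMTS12 and ADAM10 head the plot, and ADAMTS14 and ADAM28 brighten toward day +2 in all 3 lines while ADAM12 and ADAMTS1 darken.

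The mean summed level of the 46 genes was lower at day +2 than at day −2 in each line. In order of day, the sum in control cells was 1258 ± 9.4, 1135 ± 38.0 and 971 ± 37.1 CPM (mean ± SD over the 3 libraries of a group). In MMP2sh1 cells it was 1126 ± 32.3, 1115 ± 12.4 and 1037 ± 16.2 CPM, and in MMP2sh2 cells 1243 ± 14.7, 1180 ± 15.2 and 992 ± 6.0 CPM. These sums are descriptions, and they are carried by the few abundant genes. In bulk RNA, fewer cells that express a gene and less RNA per cell cannot be told apart.

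The first comparison asks which of these genes change when U2OS cells expand from day −2 to day +2. A gene was called changed at an adjusted p under 0.05 (edgeR quasi-likelihood test, Benjamini-Hochberg adjustment over all genes tested), and changes are log2 fold changes ± standard error (SE). In control cells 29 of 36 tested genes were called, 11 higher and 18 lower, where 56.8% of all genes tested were called, 28.1% higher and 28.6% lower. In MMP2sh1 cells 27 of 34 were called, 12 higher and 15 lower (all genes 54.9%, with 27.3% and 27.7%), and in MMP2sh2 cells 29 of 34, 12 higher and 17 lower (all genes 54.7%, with 27.7% and 27.1%). The median log2 change of the tested genes was −0.29, −0.08 and −0.26 in the 3 lines, against medians of at most 0.05 for all genes. The 3 expansions share no library. Of the 33 genes tested in all 3 lines, 9 rose in each line and 15 fell in each line, where 19.4% and 21.6% of all genes did so. At least 2-fold in each line, 6 rose (ADAM28, ADAMTS7, ADAMTS10, ADAMTS13, ADAMTS14 and ADAMTS17) and 6 fell (ADAM11, ADAM12, ADAMTS1, ADAMTS5, ADAMTS8 and ADAMTS15), where 8.95% of all genes moved that far, 5.64% up and 3.31% down. For these 12 genes the day −2 and day +2 libraries of the same line did not overlap. That is a description, since the genes were chosen by their changes in the same libraries.

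**Figure D2:**
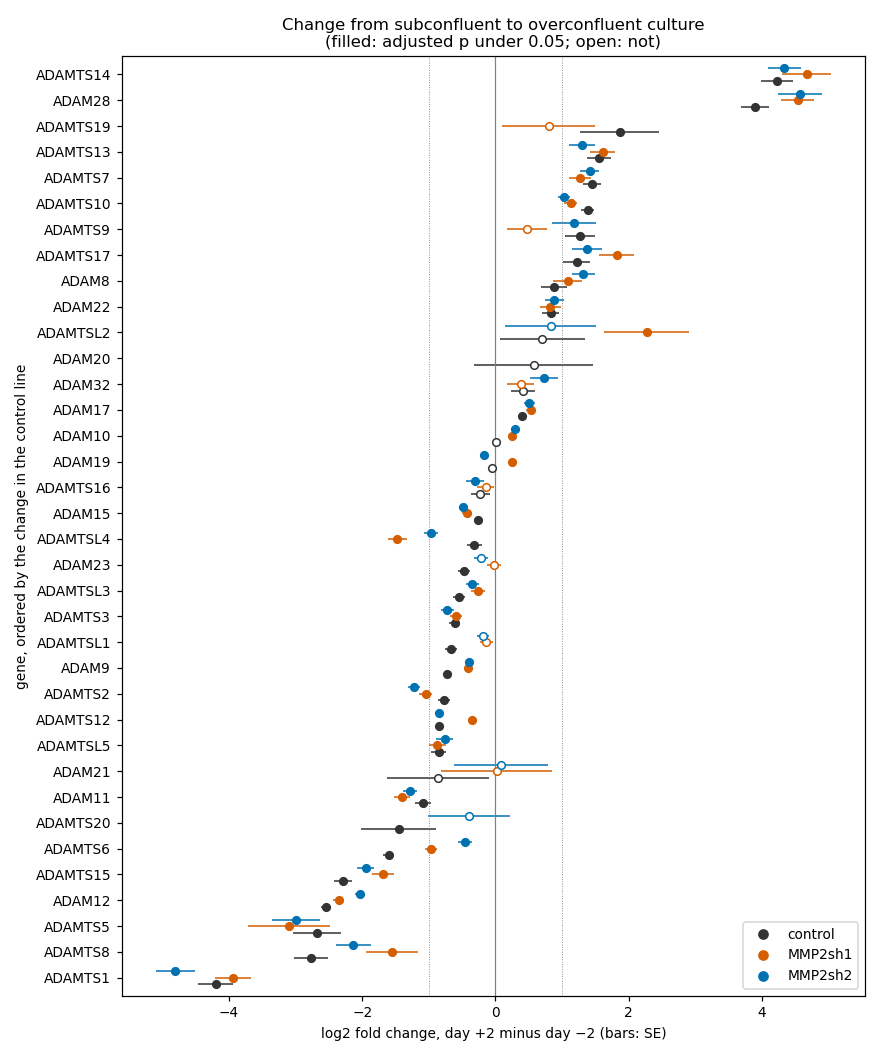
Log2 fold change from day −2 to day +2 with its SE for each tested gene in control, MMP2sh1 and MMP2sh2 cells, ordered by the change in control cells, with filled points for calls at an adjusted p under 0.05 and dotted lines at a 2-fold change. ADAMTS14 and ADAM28 lie farthest to the side of a rise in every line, and ADAMTS1 farthest to the side of a fall.

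Among the ADAMs with proteinase activity, 12 in the list, 3 of 10 tested rose and 3 fell in control cells, 5 and 3 of 9 in MMP2sh1 cells, and 4 and 4 of 9 in MMP2sh2 cells. Their median log2 change was −0.02, 0.24 and 0.08 in control, MMP2sh1 and MMP2sh2 cells. ADAM28 encodes a proteinase best known from lymphocytes. ADAM28 in control cells read 0.554, 0.544 and 0.633 CPM at day −2, 1.73, 1.2 and 2.06 CPM at day 0 and 9.42, 7.73 and 8.82 CPM at day +2. ADAM28 in MMP2sh1 cells read 0.189, 0.751 and 1.02 CPM at day −2, 2.97, 3.48 and 3.53 CPM at day 0 and 15.5, 14.9 and 16.9 CPM at day +2. ADAM28 in MMP2sh2 cells read 0.0479, 0.386 and 0.259 CPM at day −2, 1.63, 0.913 and 0.765 CPM at day 0 and 5.64, 5.57 and 5.81 CPM at day +2. Every day +2 library stood above every day 0 library of its line, and every day 0 library above every day −2 library. The rise to day +2 had a log2 change of 3.90 ± 0.21 in control, 4.54 ± 0.25 in MMP2sh1 and 4.57 ± 0.33 in MMP2sh2 cells (adjusted p = 6.64e-15, 2.81e-13 and 3.46e-13). The day −2 libraries held few reads of this gene, as few as 2 in a library, and without MMP2sh2 day −2 replicate 2 the log2 change of that line was 5.26.

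ADAM12, a sheddase of heparin-binding EGF-like growth factor that is prominent in mesenchymal cells, moved the other way from a much higher level. ADAM12 (chr10:127700950-128077046 on the minus strand, GRCh37, with 23 exons in the canonical transcript) read 72, 71 and 73.5 CPM at day −2, 39.7, 42.2 and 39.2 CPM at day 0 and 13.8, 12.7 and 11 CPM at day +2 in control cells. ADAM12 in MMP2sh1 cells read 60.1, 55.6 and 57.1 CPM at day −2, 35.4, 35.9 and 37.3 CPM at day 0 and 10.4, 11.6 and 12.2 CPM at day +2. ADAM12 in MMP2sh2 cells read 77.8, 75.6 and 73 CPM at day −2, 45.2, 49.1 and 46.4 CPM at day 0 and 18.1, 18.2 and 19 CPM at day +2. The day −2 libraries were the highest and the day +2 libraries the lowest in each line without overlap. ADAM12 fell with a log2 change of −2.55 ± 0.08 in control, −2.35 ± 0.09 in MMP2sh1 and −2.03 ± 0.08 in MMP2sh2 cells (adjusted p = 2.92e-20, 1.89e-16 and 1.83e-20), so that day +2 control cells held 17.1% of the day −2 level.

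The abundant sheddases moved less. ADAM9 in control cells read 289, 278 and 276 CPM at day −2, 239, 271 and 239.7 CPM at day 0 and 184, 175 and 155 CPM at day +2. ADAM9 in MMP2sh1 cells read 228, 232 and 216 CPM at day −2, 238, 241 and 229 CPM at day 0 and 163, 179.6 and 172 CPM at day +2. ADAM9 in MMP2sh2 cells read 264, 263 and 244 CPM at day −2, 275, 264 and 272 CPM at day 0 and 194, 183 and 207 CPM at day +2. In each line the day +2 libraries were below all others, while the day −2 libraries of MMP2sh1 cells lay below those of control cells. ADAM9 fell by day +2 with a log2 change of −0.73 ± 0.05 in control, −0.41 ± 0.06 in MMP2sh1 and −0.40 ± 0.06 in MMP2sh2 cells (adjusted p = 3.42e-12, 3.77e-06 and 1.34e-06). ADAM15, which carries an integrin-binding motif in its disintegrin domain, read 83, 76.3 and 79.9 CPM at day −2, 75.8, 81.7 and 85.2 CPM at day 0 and 63.2, 67.4 and 71.7 CPM at day +2 in control cells. ADAM15 in MMP2sh1 cells read 86.7, 93.9 and 106 CPM at day −2, 83.4, 83.8 and 81.5 CPM at day 0 and 74.9, 68.7 and 72.2 CPM at day +2. ADAM15 in MMP2sh2 cells read 88.3, 92.6 and 104 CPM at day −2, 80.7, 83.2 and 81.6 CPM at day 0 and 66.1, 67.9 and 68.9 CPM at day +2. It was lowest at day +2 in every line, with a log2 change of −0.26 ± 0.06 in control, −0.43 ± 0.07 in MMP2sh1 and −0.48 ± 0.07 in MMP2sh2 cells (adjusted p = 0.000527, 2.79e-05 and 2.76e-07).

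The best known general sheddases, ADAM10 and ADAM17, had small changes, and the ADAM10 change was called in the hairpin lines but not in control cells. Its difference from the control change, tested below, was called for MMP2sh2 but not for MMP2sh1 cells. ADAM10 in control cells read 139, 140.0 and 141 CPM at day −2, 149, 162 and 151 CPM at day 0 and 152, 142 and 135 CPM at day +2. ADAM10 in MMP2sh1 cells read 132, 137 and 125 CPM at day −2, 151, 150.0 and 151 CPM at day 0 and 151, 158 and 164 CPM at day +2. ADAM10 in MMP2sh2 cells read 119, 121 and 117 CPM at day −2, 141, 130.1 and 144 CPM at day 0 and 143, 147 and 145 CPM at day +2. In control cells the day −2 and day +2 libraries overlapped, and in both hairpin lines the day +2 libraries were higher than at day −2. The log2 change was 0.01 ± 0.05 in control, 0.24 ± 0.06 in MMP2sh1 and 0.29 ± 0.06 in MMP2sh2 cells (adjusted p = 0.89, 0.00177 and 0.000107). ADAM17 rose in all 3 lines, with a log2 change of 0.40 ± 0.06 in control, 0.53 ± 0.08 in MMP2sh1 and 0.51 ± 0.08 in MMP2sh2 cells (adjusted p = 3.89e-06, 2.81e-06 and 4.48e-06). Of the ADAM17 exon bases 30.1% are shared with the neighbouring gene IAH1, and the counts do not use strand, so reads there could not be assigned to it. ADAM8, a sheddase known from leukocytes and osteoclasts, rose with log2 changes of 0.87, 1.08 and 1.32 in control, MMP2sh1 and MMP2sh2 cells from 1.92 to 3.81 CPM at day −2.

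Among the ADAMs without a listed proteinase role, 10 in the list and 4 tested, ADAM11 fell and ADAM22 rose in every line, and the median log2 change of the 4 was −0.03, 0.18 and 0.26. ADAM11 and ADAM22 lack a working catalytic site and are best known from neurons, where ADAM22 binds LGI proteins. ADAM11 (chr17:42836356-42859214 on the plus strand) read 19.1, 16.9 and 18.5 CPM at day −2, 14.6, 18 and 15.2 CPM at day 0 and 8.04, 10.4 and 7.46 CPM at day +2 in control cells. ADAM11 in MMP2sh1 cells read 20.5, 19.9 and 20.3 CPM at day −2, 18, 20.2 and 17.7 CPM at day 0 and 7.64, 8.68 and 6.91 CPM at day +2. ADAM11 in MMP2sh2 cells read 21.2, 22.6 and 24 CPM at day −2, 21.3, 18.5 and 19.7 CPM at day 0 and 9.78, 9.95 and 7.93 CPM at day +2. The day +2 libraries were the lowest of each line. ADAM11 fell with a log2 change of −1.09 ± 0.12 in control, −1.40 ± 0.11 in MMP2sh1 and −1.29 ± 0.11 in MMP2sh2 cells (adjusted p = 7.17e-09, 3.18e-10 and 1.13e-11). ADAM22 rose with log2 changes of 0.83, 0.82 and 0.88 in control, MMP2sh1 and MMP2sh2 cells. ADAM23, a relative of ADAM22, fell in control cells with a log2 change of −0.47 ± 0.09 (adjusted p = 8.24e-05), and ADAM32 rose in MMP2sh2 cells with a log2 change of 0.73 ± 0.21 (adjusted p = 0.00399).

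The ADAMTS proteoglycanases, enzymes that cut aggrecan and versican, mostly fell. Of 7 in the list, 6 were tested in control cells, and 5 fell and 1 rose. In MMP2sh1 cells 4 of 5 tested fell and none rose, and in MMP2sh2 cells 4 of 6 fell and 1 rose. The median log2 change was −2.49, −1.69 and −2.04. ADAMTS1, ADAMTS5, ADAMTS8 and ADAMTS15 fell in every line. They lie as neighbouring pairs: ADAMTS1 (chr21:28208074-28217728 on the minus strand) and ADAMTS5 (chr21:28290241-28339407 on the minus strand) are separated by 72.5 kb, and ADAMTS8 (chr11:130274818-130298504 on the minus strand) and ADAMTS15 (chr11:130318540-130346540 on the plus strand) by 20.0 kb with their starts facing each other (GRCh37). Pairs of the 46 genes within 200 kb of each other number 9.

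ADAMTS1, the best known versican-cutting member, fell in each line. ADAMTS1 in control cells read 10.0, 10.9 and 8.19 CPM at day −2, 2.92, 2.64 and 3.53 CPM at day 0 and 0.259, 0.963 and 0.34 CPM at day +2. ADAMTS1 in MMP2sh1 cells read 6.4, 5.51 and 6.3 CPM at day −2, 1.87, 4.0 and 2.7 CPM at day 0 and 0.391, 0.514 and 0.29 CPM at day +2. ADAMTS1 in MMP2sh2 cells read 6.56, 9.32 and 5.79 CPM at day −2, 3.14, 2.96 and 3.3 CPM at day 0 and 0.387, 0.165 and 0.215 CPM at day +2. Each line stepped down from day −2 to day 0 and again to day +2. ADAMTS1 fell with a log2 change of −4.20 ± 0.26 in control, −3.94 ± 0.27 in MMP2sh1 and −4.81 ± 0.29 in MMP2sh2 cells (adjusted p = 2.37e-13, 1.55e-11 and 4.12e-15), leaving 5.44%, 6.51% and 3.57% of the day −2 level. In control cells the value rested in part on day +2 replicate 2, without which it was −5.00. ADAMTS5, a main aggrecanase of cartilage, read 4.09, 3.14 and 3.45 CPM at day −2, 2.4, 1.46 and 0.799 CPM at day 0 and 0.173, 0.42 and 1.05 CPM at day +2 in control cells. ADAMTS5 in MMP2sh1 cells read 0.917, 1.65 and 1.36 CPM at day −2, 1.39, 0.908 and 0.852 CPM at day 0 and 0.339, 0.0257 and 0.0967 CPM at day +2. ADAMTS5 in MMP2sh2 cells read 3.04, 2.73 and 2.91 CPM at day −2, 1.27, 0.774 and 0.765 CPM at day 0 and 0.557, 0.235 and 0.287 CPM at day +2. Its day +2 libraries held few reads, as few as 1. ADAMTS5 fell with a log2 change of −2.68 ± 0.36 in control, −3.10 ± 0.62 in MMP2sh1 and −2.99 ± 0.36 in MMP2sh2 cells (adjusted p = 4.41e-07, 0.000163 and 1.94e-08). Without control day +2 replicate 3 the control value was −3.56, and without MMP2sh1 day +2 replicate 1 the MMP2sh1 value was −4.36.

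ADAMTS8 and ADAMTS15 fell less than ADAMTS1 in each line. ADAMTS8, which also has antiangiogenic activity, read 4.85, 6.31 and 4.66 CPM at day −2, 2.57, 1.66 and 2.37 CPM at day 0 and 0.72, 0.568 and 1.05 CPM at day +2 in control cells. ADAMTS8 in MMP2sh1 cells read 1.43, 1.35 and 2.65 CPM at day −2, 2.12, 2.7 and 1.94 CPM at day 0 and 0.678, 0.462 and 0.725 CPM at day +2. ADAMTS8 in MMP2sh2 cells read 4.72, 5.13 and 4.04 CPM at day −2, 4.58, 3.59 and 4.01 CPM at day 0 and 1.04, 0.635 and 1.48 CPM at day +2. Day −2 libraries of control and MMP2sh2 cells lay above those of MMP2sh1 cells. ADAMTS8 fell with a log2 change of −2.77 ± 0.25 in control, −1.55 ± 0.39 in MMP2sh1 and −2.13 ± 0.26 in MMP2sh2 cells (adjusted p = 3.74e-10, 0.00172 and 3.46e-08). ADAMTS15, a versican-cutting enzyme, read 17.5, 16.3 and 13.4 CPM at day −2, 8.05, 8.92 and 9.22 CPM at day 0 and 2.82, 3.38 and 3.5 CPM at day +2 in control cells. ADAMTS15 in MMP2sh1 cells read 8.45, 9.59 and 10.0 CPM at day −2, 8.13, 11 and 8.64 CPM at day 0 and 3.0, 3.08 and 2.76 CPM at day +2. ADAMTS15 in MMP2sh2 cells read 15.4, 17 and 15.1 CPM at day −2, 12.7, 12.7 and 12.5 CPM at day 0 and 3.95, 4.16 and 4.16 CPM at day +2. On the log2 scale the larger step down came between day 0 and day +2 in each line. ADAMTS15 fell with a log2 change of −2.29 ± 0.14 in control, −1.69 ± 0.16 in MMP2sh1 and −1.95 ± 0.13 in MMP2sh2 cells (adjusted p = 5.98e-14, 4.69e-09 and 3.05e-14). ADAMTS9, a proteoglycanase also needed for ciliogenesis, moved the other way: it rose in control and MMP2sh2 cells, and the log2 change was 1.27 ± 0.23 in control, 0.47 ± 0.30 in MMP2sh1 and 1.18 ± 0.33 in MMP2sh2 cells (adjusted p = 2.82e-05, 0.2 and 0.00301). The value of ADAMTS20, −1.45 ± 0.56 (adjusted p = 0.0306) in control cells, lost its call when any of 4 of the 6 libraries was left out. ADAMTS20 read 0.866, 0.922 and 0.345 CPM at day −2 and 0.144, 0.42 and 0.219 CPM at day +2 there. It passed the filter on low counts through its day −2 libraries, so the direction of this fall, counted above, adds no support.

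The 3 procollagen N-propeptidases, which remove the amino-terminal propeptide of fibrillar procollagens, did not move together. ADAMTS14 rose in each line, whereas ADAMTS2 and ADAMTS3 fell in each line. ADAMTS14 (chr10:72432262-72522197 on the plus strand, GRCh37, 22 exons) read 0.277, 0.898 and 0.92 CPM at day −2, 1.64, 1.03 and 1.82 CPM at day 0 and 13.7, 10.3 and 13.3 CPM at day +2 in control cells. ADAMTS14 in MMP2sh1 cells read 0.027, 0.279 and 1.07 CPM at day −2, 1.42, 1.47 and 1.44 CPM at day 0 and 13.9, 11.6 and 10.5 CPM at day +2. ADAMTS14 in MMP2sh2 cells read 0.695, 0.224 and 0.634 CPM at day −2, 0.497, 1.22 and 1.0 CPM at day 0 and 8.74, 10.7 and 10.9 CPM at day +2. All libraries were low at day −2 and day 0, and all 9 day +2 libraries were several times higher. ADAMTS14 rose with a log2 change of 4.22 ± 0.25 in control, 4.67 ± 0.37 in MMP2sh1 and 4.33 ± 0.25 in MMP2sh2 cells (adjusted p = 4.57e-14, 2.02e-10 and 7.31e-16), an increase of 18.7-fold in control cells. The day −2 counts were as low as 1 read, and without MMP2sh1 day −2 replicate 3 the log2 change of that line was 6.13. ADAMTS2, the main procollagen I propeptidase of skin, read 21.9, 23.6 and 24.2 CPM at day −2, 24, 22.5 and 26.8 CPM at day 0 and 14, 12.9 and 14.2 CPM at day +2 in control cells. ADAMTS2 in MMP2sh1 cells read 23, 24.3 and 24.3 CPM at day −2, 23, 23.6 and 22.7 CPM at day 0 and 12.4, 11 and 11.8 CPM at day +2. ADAMTS2 in MMP2sh2 cells read 35.5, 33.9 and 37.8 CPM at day −2, 25.9, 28.9 and 24.8 CPM at day 0 and 16.6, 13 and 16.2 CPM at day +2. MMP2sh2 cells began highest and ended near the other lines. ADAMTS2 fell with a log2 change of −0.78 ± 0.09 in control, −1.05 ± 0.10 in MMP2sh1 and −1.22 ± 0.09 in MMP2sh2 cells (adjusted p = 2.9e-08, 3.63e-09 and 1.42e-12). ADAMTS3, which also activates the lymphatic growth factor VEGF-C, fell with log2 changes of −0.61, −0.59 and −0.72 in control, MMP2sh1 and MMP2sh2 cells.

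The 2 enzymes that cut COMP also parted. ADAMTS7 (chr15:79051548-79103806 on the minus strand) read 4.54, 4.23 and 4.34 CPM at day −2, 6.76, 6.54 and 5.69 CPM at day 0 and 11.5, 10.7 and 13.8 CPM at day +2 in control cells. ADAMTS7 in MMP2sh1 cells read 3.8, 5.92 and 7.37 CPM at day −2, 6.48, 6.72 and 6.14 CPM at day 0 and 14.8, 13.3 and 13.8 CPM at day +2. ADAMTS7 in MMP2sh2 cells read 5.63, 4.39 and 5.16 CPM at day −2, 6.37, 4.62 and 5.65 CPM at day 0 and 13.9, 14.7 and 11.6 CPM at day +2. The day +2 libraries were the highest of each line. ADAMTS7 rose with a log2 change of 1.44 ± 0.14 in control, 1.27 ± 0.17 in MMP2sh1 and 1.41 ± 0.14 in MMP2sh2 cells (adjusted p = 7.08e-10, 6.81e-07 and 3.36e-10). Near-identical pseudogene copies of ADAMTS7 exist, and how reads were split among them is uncertain. ADAMTS12, the most abundant ADAMTS gene, read 167, 166 and 166 CPM at day −2, 141, 159 and 148 CPM at day 0 and 109, 88.1 and 84.8 CPM at day +2 in control cells. ADAMTS12 in MMP2sh1 cells read 122, 128 and 128 CPM at day −2, 134, 135 and 134 CPM at day 0 and 100.2, 106 and 95.1 CPM at day +2. ADAMTS12 in MMP2sh2 cells read 166, 169 and 168 CPM at day −2, 163, 161 and 165 CPM at day 0 and 93.1, 92.6 and 92.4 CPM at day +2. The day −2 libraries of MMP2sh1 cells were well below those of the other lines, and at day +2 the libraries of both hairpin lines lay within the range of the control libraries. ADAMTS12 fell with a log2 change of −0.84 ± 0.06 in control, −0.35 ± 0.06 in MMP2sh1 and −0.85 ± 0.06 in MMP2sh2 cells (adjusted p = 9.05e-12, 6.9e-05 and 1.18e-13).

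ADAMTS13, the plasma protease of von Willebrand factor, which is made mainly in the liver, rose in each line. ADAMTS13 (chr9:136279478-136324524 on the plus strand) read 2.01, 2.25 and 2.59 CPM at day −2, 4.88, 4.49 and 5.16 CPM at day 0 and 6.37, 6.47 and 7.27 CPM at day +2 in control cells. ADAMTS13 in MMP2sh1 cells read 2.21, 3.26 and 2.58 CPM at day −2, 4.14, 4.86 and 4.26 CPM at day 0 and 9.36, 8.94 and 6.7 CPM at day +2. ADAMTS13 in MMP2sh2 cells read 2.54, 2.56 and 4.09 CPM at day −2, 5.6, 5.89 and 4.41 CPM at day 0 and 6.27, 9.08 and 6.95 CPM at day +2. The rise had a log2 change of 1.55 ± 0.18 in control, 1.61 ± 0.19 in MMP2sh1 and 1.30 ± 0.19 in MMP2sh2 cells (adjusted p = 3.16e-08, 1.5e-07 and 8.7e-07). ADAMTS10 and ADAMTS17, which take part in fibrillin microfibril assembly, rose as well. ADAMTS10 (chr19:8645124-8675620 on the minus strand) read 11.7, 13.2 and 16 CPM at day −2, 26.7, 26.4 and 26.7 CPM at day 0 and 32.9, 36 and 38.3 CPM at day +2 in control cells. ADAMTS10 in MMP2sh1 cells read 10.4, 12.4 and 12.9 CPM at day −2, 18.1, 19.4 and 19.6 CPM at day 0 and 27.7, 25.7 and 25.7 CPM at day +2. ADAMTS10 in MMP2sh2 cells read 16.6, 15.7 and 16.3 CPM at day −2, 23.5, 25.4 and 24.7 CPM at day 0 and 33.3, 35.1 and 30.3 CPM at day +2. It rose with a log2 change of 1.39 ± 0.10 in control, 1.13 ± 0.10 in MMP2sh1 and 1.02 ± 0.09 in MMP2sh2 cells (adjusted p = 2.64e-12, 2.07e-09 and 2.65e-11). ADAMTS17 (chr15:100511642-100882210 on the minus strand) read 1.84, 1.89 and 2.07 CPM at day −2, 1.77, 1.61 and 1.33 CPM at day 0 and 4.35, 4.22 and 5.03 CPM at day +2 in control cells. ADAMTS17 in MMP2sh1 cells read 0.863, 1.78 and 1.39 CPM at day −2, 1.77, 1.52 and 1.88 CPM at day 0 and 5.53, 4.13 and 4.91 CPM at day +2. ADAMTS17 in MMP2sh2 cells read 1.89, 2.14 and 1.35 CPM at day −2, 1.46, 1.6 and 1.53 CPM at day 0 and 3.68, 5.41 and 4.92 CPM at day +2. Its change was 1.22 ± 0.21 in control, 1.82 ± 0.26 in MMP2sh1 and 1.37 ± 0.23 in MMP2sh2 cells (adjusted p = 1.25e-05, 2.25e-06 and 6.87e-06) on the log2 scale, and 6.81% of its exon bases are shared with another gene.

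ADAMTS6, a close relative of ADAMTS10 that also binds microfibrils, fell while ADAMTS10 rose. ADAMTS6 (chr5:64444565-64777747 on the minus strand) read 36.2, 35.4 and 36.2 CPM at day −2, 24.8, 25.6 and 26.5 CPM at day 0 and 11.8, 11.8 and 12.3 CPM at day +2 in control cells. ADAMTS6 in MMP2sh1 cells read 36.9, 36.1 and 35.7 CPM at day −2, 34.4, 38.3 and 34 CPM at day 0 and 20.4, 18.2 and 17.7 CPM at day +2. ADAMTS6 in MMP2sh2 cells read 26.2, 26.6 and 21 CPM at day −2, 27.1, 23.9 and 24.7 CPM at day 0 and 18.4, 16.1 and 19.1 CPM at day +2. The lines differed in their starting level: control and MMP2sh1 libraries were alike at day −2, and MMP2sh2 libraries were lower. ADAMTS6 fell with a log2 change of −1.6 ± 0.08 in control, −0.97 ± 0.09 in MMP2sh1 and −0.46 ± 0.10 in MMP2sh2 cells (adjusted p = 1.66e-15, 1.63e-09 and 0.000299). ADAMTS16 fell in MMP2sh2 cells with a log2 change of −0.31 ± 0.13 (adjusted p = 0.0451), a call lost when either of 2 libraries was left out. ADAMTS19 rose in control cells with a log2 change of 1.86 ± 0.59 (adjusted p = 0.00895), lost without 1 library. It read 0.26, 0.118 and 0.115 CPM at day −2 and 0.807, 0.568 and 0.535 CPM at day +2. The gene thus passed the filter on low counts through its day +2 libraries, and the direction of its change adds no support.

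The ADAMTSL genes mostly fell: of 5, 4 fell in control cells and 3 in each hairpin line, and ADAMTSL2 rose in MMP2sh1 cells. The median log2 change of the 5 was −0.55, −0.26 and −0.35. ADAMTSL3, a matrix protein without protease activity, read 22.5, 21.7 and 25.1 CPM at day −2, 28.5, 27.9 and 26.5 CPM at day 0 and 17, 14.8 and 16.1 CPM at day +2 in control cells. ADAMTSL3 in MMP2sh1 cells read 18.4, 20.4 and 22.2 CPM at day −2, 27.2, 25.9 and 30.1 CPM at day 0 and 18, 18.2 and 15.4 CPM at day +2. ADAMTSL3 in MMP2sh2 cells read 20.2, 21.5 and 23.4 CPM at day −2, 30.1, 28 and 28.6 CPM at day 0 and 17.3, 15.4 and 18.2 CPM at day +2. Day 0 was the highest stage and day +2 the lowest in each line. ADAMTSL3 fell over the whole expansion with a log2 change of −0.55 ± 0.09 in control, −0.26 ± 0.10 in MMP2sh1 and −0.35 ± 0.10 in MMP2sh2 cells (adjusted p = 8.62e-06, 0.0371 and 0.00304), and the MMP2sh1 call was lost in 3 of 6 fits that left out a library. ADAMTSL4, which binds fibrillin in the lens zonule and elsewhere (chr1:150521845-150533413 on the plus strand), read 13.5, 16.1 and 15.5 CPM at day −2, 18.1, 20.2 and 20.3 CPM at day 0 and 11.7, 11 and 13.7 CPM at day +2 in control cells. ADAMTSL4 in MMP2sh1 cells read 15.3, 14.9 and 13.5 CPM at day −2, 14.5, 16.7 and 15.6 CPM at day 0 and 6.2, 5.62 and 4.13 CPM at day +2. ADAMTSL4 in MMP2sh2 cells read 19.9, 18.2 and 21.5 CPM at day −2, 19, 20.4 and 21 CPM at day 0 and 9.78, 10.6 and 10.1 CPM at day +2. The day +2 libraries of MMP2sh1 cells were the lowest of all. ADAMTSL4 fell with a log2 change of −0.32 ± 0.11 in control, −1.47 ± 0.15 in MMP2sh1 and −0.96 ± 0.11 in MMP2sh2 cells (adjusted p = 0.0148, 8.3e-09 and 3.16e-09), and the control call was lost in 3 of 6 fits that left out a library. Of its exon bases 23.9% overlap its antisense genes and MCL1, so its counts are uncertain. ADAMTSL5 fell with log2 changes of −0.85, −0.87 and −0.77 in control, MMP2sh1 and MMP2sh2 cells. ADAMTSL2, which binds the TGF-beta binding protein LTBP1, rose in MMP2sh1 cells with a log2 change of 2.27 ± 0.64 (adjusted p = 0.00412) from under 0.3 CPM. That value was 2.92 without MMP2sh1 day −2 replicate 3, and the call was lost without MMP2sh1 day +2 replicate 3 (adjusted p = 0.068). ADAMTSL2 passed the filter on low counts there through its day +2 libraries, so the direction of its change adds no support.

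**Figure D3:**
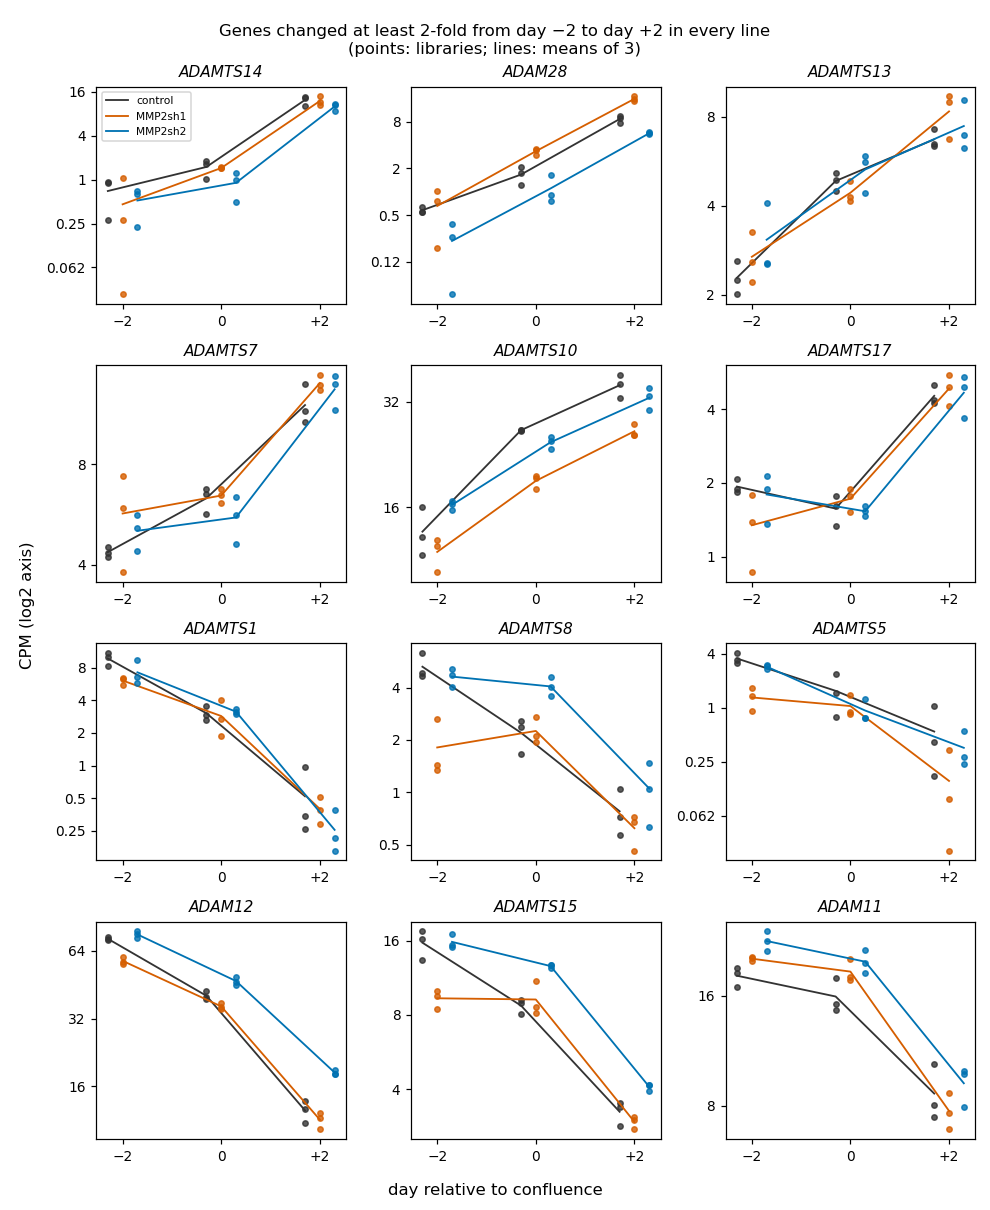
CPM on a log2 axis against day for the 12 genes that changed at least 2-fold in all 3 lines, with a point for each library and a line through the mean of the 3 libraries of each line. The 6 rising genes end above their day −2 points in each line and the 6 falling genes below them.

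The expansion was then divided into the steps from day −2 to day 0 and from day 0 to day +2, which share the day 0 libraries. In the first step 22 of 35 tested genes were called in control (all genes 35.5%), 13 of 34 in MMP2sh1 (32.7%) and 16 of 33 in MMP2sh2 cells (30.3%). In the second step 26 of 35 were called in control (41.4%), 25 of 33 in MMP2sh1 (46%) and 25 of 34 in MMP2sh2 cells (45.5%). The first step had 6 genes that rose in all 3 lines (ADAM8, ADAM10, ADAM28, ADAMTS10, ADAMTS13 and ADAMTSL3) and 4 that fell (ADAM12, ADAM19, ADAMTS1 and ADAMTSL5), where 18% of all genes moved with the same sign in the 3 lines. In the second step 10 rose and 14 fell in all 3 lines, where 30.2% of all genes did.

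ADAM19 and ADAMTSL3 turned at confluence in every line. ADAM19 in control cells read 196, 197 and 186 CPM at day −2, 140.0, 145 and 148 CPM at day 0 and 192, 185 and 189 CPM at day +2. ADAM19 in MMP2sh1 cells read 172, 197 and 200.4 CPM at day −2, 163, 163 and 169 CPM at day 0 and 234, 232 and 221 CPM at day +2. ADAM19 in MMP2sh2 cells read 182, 199 and 218 CPM at day −2, 151, 155 and 159.7 CPM at day 0 and 181, 175 and 173 CPM at day +2. The day 0 libraries were the lowest of each line. ADAM19 fell to day 0 with log2 changes of −0.42 ± 0.04 (adjusted p = 2.17e-08) in control, −0.20 ± 0.06 (adjusted p = 0.00954) in MMP2sh1 and −0.35 ± 0.06 (adjusted p = 3.11e-05) in MMP2sh2 cells. It then rose to day +2 by 0.39 ± 0.05 (adjusted p = 4.06e-08), 0.47 ± 0.05 (adjusted p = 1.77e-08) and 0.19 ± 0.05 (adjusted p = 0.00221). Over the whole expansion its log2 change was −0.05 ± 0.05 in control, 0.25 ± 0.06 in MMP2sh1 and −0.18 ± 0.06 in MMP2sh2 cells (adjusted p = 0.36, 0.00184 and 0.016), and the MMP2sh2 call was lost when 1 library was left out. ADAMTSL3 took the opposite course. Its log2 change to day 0 was 0.26 ± 0.08 (adjusted p = 0.01) in control, 0.45 ± 0.09 (adjusted p = 0.000561) in MMP2sh1 and 0.43 ± 0.08 (adjusted p = 0.000245) in MMP2sh2 cells. From day 0 to day +2 it was −0.79 ± 0.08 (adjusted p = 4.9e-09), −0.69 ± 0.09 (adjusted p = 9e-07) and −0.76 ± 0.09 (adjusted p = 1.91e-08). In control cells ADAMTSL4 rose by 0.38 ± 0.09 (adjusted p = 0.00191) and then changed by −0.68 ± 0.10 (adjusted p = 1.97e-06). In MMP2sh1 cells ADAMTSL1 changed by −0.39 ± 0.10 (adjusted p = 0.00287) and then rose by 0.27 ± 0.09 (adjusted p = 0.0196) on the log2 scale.

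The second question was how these genes differ between the MMP2-depleted lines and control cells at each day. At day −2, 10 of 34 tested genes were called in MMP2sh1 cells, 1 higher and 9 lower, where 11.6% of all genes were called, 5.42% higher and 6.14% lower. The day 0 comparison called 8 of 35, 4 higher and 4 lower (all genes 16.8%, with 8.26% higher and 8.58% lower). The day +2 comparison called 6 of 33, 4 higher and 2 lower (all genes 14.8%, with 7.68% and 7.11%). For MMP2sh2 cells, day −2 had 6 of 34 called, 4 higher and 2 lower (all genes 11%, with 4.71% and 6.33%). Day 0 had 7 of 34, 5 higher and 2 lower (all genes 12.9%, with 7.07% and 5.81%), and day +2 had 5 of 36, 4 higher and 1 lower (all genes 6.32%, with 2.89% and 3.43%). No gene was called with the same sign at all 3 days in either line, where 2.73% of all genes were in MMP2sh1 and 0.602% in MMP2sh2 cells. Of the 36 tested genes 20 were called in at least 1 of the 6 comparisons. The share of all genes called in at least 1 was not computed, so this count is a description. ADAM20 and ADAM21 were not called in any comparison in which they were tested. Both hairpin lines of a day share its control libraries, so the values of the lines are set side by side and are not independent. The effects of the hairpin lines were not tested against each other.

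**Figure D4:**
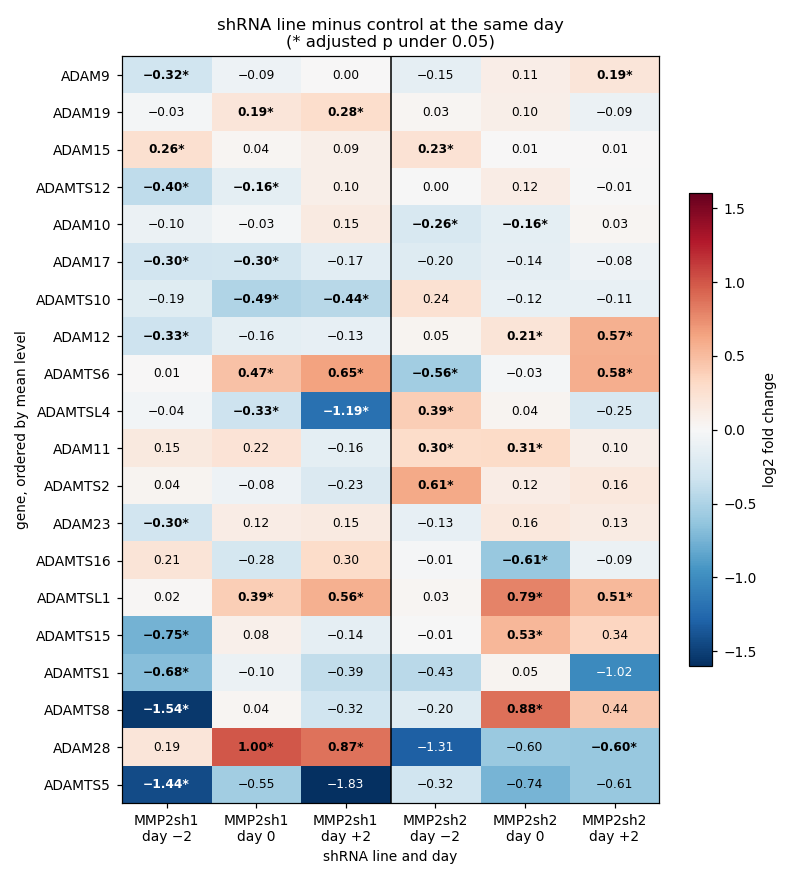
Log2 fold change of MMP2sh1 and MMP2sh2 cells over control cells at days −2, 0 and +2 for the 20 genes called in at least 1 of these 6 comparisons, with the value in each cell and an asterisk where the adjusted p was under 0.05. The MMP2sh1 column of day −2 holds 10 asterisks, 9 of them on negative values.

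At day −2 the called genes of MMP2sh1 cells were mostly lower. The 4 proteoglycanases that fell during expansion were among them, 4 of the 6 proteoglycanases tested, where 6.14% of all genes tested were called lower. The median log2 change of the 6 was −1.10. The comparison uses the day −2 libraries of the control and MMP2sh1 expansions, so it is not independent of the falls in those lines. For all 10 called genes the 3 control and 3 MMP2sh1 libraries did not overlap, but the calls come from the same libraries, so this adds no support. ADAMTS8 had a log2 difference of −1.54 ± 0.24 (adjusted p = 6.84e-05) and ADAMTS5 one of −1.44 ± 0.26 (adjusted p = 0.000417). ADAMTS15 differed by −0.75 ± 0.12 (adjusted p = 7.74e-05) and ADAMTS1 by −0.68 ± 0.14 (adjusted p = 0.00159). In MMP2sh2 cells at day −2 the log2 differences of these 4 genes from the same control libraries were −0.20, −0.32, −0.01 and −0.43, and none was called. At day 0 ADAMTS8 and ADAMTS15 were higher in MMP2sh2 cells, by 0.88 ± 0.22 (adjusted p = 0.00502) and 0.53 ± 0.11 (adjusted p = 0.00105). At day +2 none of the proteoglycanases was called in either line.

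The other genes lower in MMP2sh1 cells at day −2 were ADAMTS12, with a log2 difference of −0.40 ± 0.05 (adjusted p = 1.2e-05), ADAM12 with −0.33 ± 0.06 (adjusted p = 0.000755), ADAM9 with −0.32 ± 0.05 (adjusted p = 0.000137), ADAM17 with −0.30 ± 0.07 (adjusted p = 0.00756) and ADAM23 with −0.30 ± 0.10 (adjusted p = 0.0373). The ADAM23 call was lost in 5 of 6 fits that left out a library. Of these genes ADAMTS12 and ADAM17 were also lower at day 0, with log2 differences of −0.16 ± 0.05 (adjusted p = 0.0158) and −0.30 ± 0.07 (adjusted p = 0.00188), the former lost in 3 of 6 fits. Of the 9 genes lower in MMP2sh1 cells at day −2, 7 also fell in the expansion of MMP2sh2 cells, a comparison that shares no library with it. They are 77.8% of the 9 and 41.2% of the 17 that fell, and 1 of the 9 rose. Of all 34 of these genes tested in both comparisons, 17 (50%) fell in that expansion. Among all genes, 28.5% of the 1157 genes lower in MMP2sh1 cells fell in that expansion and 44.9% rose. This is a description, and it was not tested.

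ADAM15 was the single gene higher in both hairpin lines at day −2. Its log2 difference from control was 0.26 ± 0.07 (adjusted p = 0.0112) in MMP2sh1 and 0.23 ± 0.06 (adjusted p = 0.0155) in MMP2sh2 cells, and all 6 hairpin libraries stood above the 3 control libraries. The MMP2sh1 call was lost without control day −2 replicate 2 (adjusted p = 0.0847) or without MMP2sh1 day −2 replicate 3 (adjusted p = 0.0963). The MMP2sh2 call was lost without control day −2 replicate 2 (adjusted p = 0.0964) or without MMP2sh2 day −2 replicate 3 (adjusted p = 0.0573). Also in MMP2sh2 cells at day −2, ADAMTS2 was higher by 0.61 ± 0.08 (adjusted p = 1.66e-05), ADAMTSL4 by 0.39 ± 0.10 (adjusted p = 0.012) and ADAM11 by 0.30 ± 0.09 (adjusted p = 0.0326). ADAMTS6 was lower with a log2 difference of −0.56 ± 0.09 (adjusted p = 0.000204) and ADAM10 of −0.26 ± 0.05 (adjusted p = 0.00304). The ADAM11 call was lost in 5 of 6 fits that left out a library, and that of ADAMTSL4 without control day −2 replicate 1 (adjusted p = 0.107).

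ADAMTSL1, a secreted matrix protein also called punctin, was higher in both hairpin lines at day 0 and at day +2. ADAMTSL1 (chr9:17906561-18910948 on the plus strand) read 20.0, 21.6 and 19.4 CPM at day −2, 12.5, 10.7 and 12.8 CPM at day 0 and 14, 11.9 and 12.9 CPM at day +2 in control cells. ADAMTSL1 in MMP2sh1 cells read 20.6, 22.3 and 19.1 CPM at day −2, 16.2, 16.6 and 14.3 CPM at day 0 and 18.8, 20.4 and 17.9 CPM at day +2. ADAMTSL1 in MMP2sh2 cells read 20.3, 20.6 and 22.2 CPM at day −2, 19, 22.1 and 21.3 CPM at day 0 and 19.4, 18.4 and 17.1 CPM at day +2. The lines were alike at day −2, and at days 0 and +2 every hairpin library was above every control library. At day 0 the log2 difference was 0.39 ± 0.10 (adjusted p = 0.00581) in MMP2sh1 and 0.79 ± 0.10 (adjusted p = 2.58e-07) in MMP2sh2 cells. At day +2 it was 0.56 ± 0.10 (adjusted p = 0.000134) and 0.51 ± 0.10 (adjusted p = 0.000483). ADAMTS6 was higher in both lines at day +2, by 0.65 ± 0.10 (adjusted p = 1.69e-05) and 0.58 ± 0.10 (adjusted p = 8.69e-05), and in MMP2sh1 cells also at day 0, by 0.47 ± 0.07 (adjusted p = 1e-05).

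Several genes differed from control in a single hairpin line, or with opposite signs in the lines. ADAMTS10 was lower in MMP2sh1 cells at day 0 and day +2, with log2 differences of −0.49 ± 0.08 (adjusted p = 2.46e-05) and −0.44 ± 0.08 (adjusted p = 0.000158). ADAMTSL4 was lower there as well, with −0.33 ± 0.09 (adjusted p = 0.00904) and −1.19 ± 0.14 (adjusted p = 4.3e-07), the first lost without MMP2sh1 day 0 replicate 1 (adjusted p = 0.0786). ADAM19 was higher by 0.19 ± 0.04 (adjusted p = 0.00144) and 0.28 ± 0.05 (adjusted p = 0.000241). ADAM28 was higher in MMP2sh1 cells at these days, by 1.00 ± 0.24 (adjusted p = 0.00261) and 0.87 ± 0.11 (adjusted p = 1.23e-06), and lower in MMP2sh2 cells at day +2, with −0.60 ± 0.14 (adjusted p = 0.00339). In MMP2sh2 cells ADAM12 was higher at day 0 and day +2, with 0.21 ± 0.06 (adjusted p = 0.0234) and 0.57 ± 0.10 (adjusted p = 0.000133), the first lost in 3 of 6 fits that left out a library. At day 0 ADAM11 differed by 0.31 ± 0.10 (adjusted p = 0.0244), ADAM10 by −0.16 ± 0.05 (adjusted p = 0.0247) and ADAMTS16 by −0.61 ± 0.11 (adjusted p = 0.000125). At day +2 ADAM9 differed by 0.19 ± 0.06 (adjusted p = 0.0399). Leaving out a library lost the call of ADAM11 in 3 fits, of ADAM10 in 2 and of ADAM9 in 4.

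Whether the expansion itself differed between the lines was tested with an interaction term, the log2 change of a hairpin line minus that of control cells. In MMP2sh1 cells 7 of 36 tested genes were called, 6 with a positive and 1 with a negative difference, where 7.4% of all genes were called, 4.52% positive and 2.88% negative. In MMP2sh2 cells 7 of 36 were called, 5 positive and 2 negative (all genes 4.98%, with 2.71% and 2.28%). The interactions share the 6 control libraries. They also rest on single libraries: without control day −2 replicate 1 the MMP2sh1 count was 4, and without control day +2 replicate 3 the MMP2sh2 count was 2. For ADAMTS6 the fall was shallower in both lines, with differences of 0.64 ± 0.11 (adjusted p = 0.000343) in MMP2sh1 and 1.14 ± 0.13 (adjusted p = 4.13e-07) in MMP2sh2 cells. ADAMTSL1 fell in control cells with a log2 change of −0.67 ± 0.09 (adjusted p = 7.59e-07), and the differences were 0.54 ± 0.13 (adjusted p = 0.0101) and 0.48 ± 0.13 (adjusted p = 0.0246). ADAM9 had differences of 0.33 ± 0.08 (adjusted p = 0.0107) and 0.33 ± 0.08 (adjusted p = 0.0117). ADAMTSL4 fell more steeply in the hairpin lines, with −1.15 ± 0.18 (adjusted p = 0.000106) and −0.65 ± 0.15 (adjusted p = 0.00736).

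In MMP2sh1 cells the differences of ADAMTS12, 0.50 ± 0.10 (adjusted p = 0.00085), of ADAM19, 0.31 ± 0.08 (adjusted p = 0.0122), and of ADAM23, 0.45 ± 0.14 (adjusted p = 0.0362), were also called. ADAM23, a catalytically inactive relative of ADAM22, read 22.9, 21.3 and 20.9 CPM at day −2, 17.2, 16.8 and 18.4 CPM at day 0 and 17.3, 14.2 and 16.3 CPM at day +2 in control cells. ADAM23 in MMP2sh1 cells read 15.7, 18.3 and 19 CPM at day −2, 17.9, 20.5 and 18.7 CPM at day 0 and 17.6, 18.2 and 17.1 CPM at day +2. ADAM23 in MMP2sh2 cells read 20.5, 21.6 and 18.3 CPM at day −2, 19.4, 18.9 and 20.5 CPM at day 0 and 15.1, 20.1 and 16.7 CPM at day +2. The day −2 control libraries stood above all later control libraries, and the stages overlapped in MMP2sh1 cells. In MMP2sh2 cells ADAM12 had a difference of 0.52 ± 0.10 (adjusted p = 0.00172), ADAM10 of 0.28 ± 0.07 (adjusted p = 0.0227) and ADAMTS2 of −0.45 ± 0.13 (adjusted p = 0.0385). The calls of ADAMTS6 in both lines, of ADAMTS12, ADAMTSL1 and ADAMTSL4 in MMP2sh1 and of ADAM12 in MMP2sh2 cells held in all 12 fits that left out a library. Those of ADAM23 and ADAMTS2 were lost in 8 of 12 each. In MMP2sh1 cells the call of ADAM9 was lost in 3 fits and that of ADAM19 in 1. In MMP2sh2 cells that of ADAMTSL1 was lost in 4, of ADAM10 in 2 and of ADAM9 and ADAMTSL4 in 1 each.

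**Figure D5:**
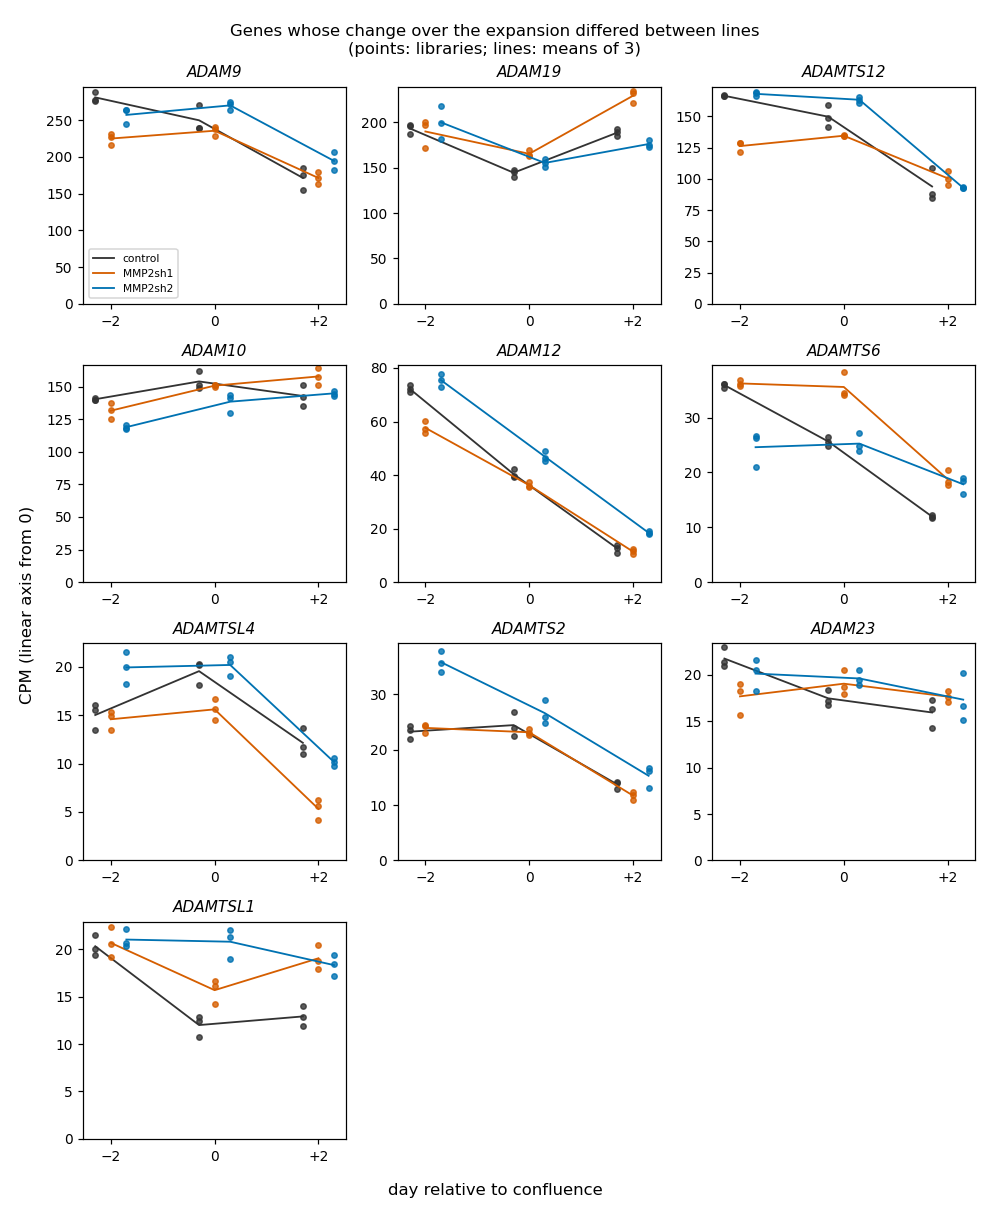
CPM on a linear axis from 0 against day for the 10 genes with a called interaction in at least 1 hairpin line, with a point for each library and a line through the mean of the 3 libraries of each line. The control line of ADAMTS6 starts above the MMP2sh2 line and ends below it, and the MMP2sh1 line of ADAMTSL4 ends below the others.

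The partners of these proteinases were followed through lists of genes, beside which 28.1%, 27.3% and 27.7% of all genes rose and 28.6%, 27.7% and 27.1% fell in the expansion of control, MMP2sh1 and MMP2sh2 cells. Values of the 3 lines are given in that order, and hairpin values and counts in order of day. The shares of all genes in the hairpin comparisons are those given above. Of 9 regulators of ADAM10 and ADAM17, 2 rose in the expansion of each line, and 6 of 8, 7 of 9 and 6 of 8 tested fell. The median log2 change was −0.34, −0.44 and −0.56. RHBDF1, an inactive rhomboid that escorts ADAM17 to the cell surface, rose with log2 changes of 0.98, 0.96 and 0.86. TSPAN10, a tetraspanin that escorts ADAM10, fell with −0.38, −1.26 and −0.93. TSPAN15, another tetraspanin of ADAM10, passed the filter in the MMP2sh1 expansion alone, where its log2 change was −2.24 ± 0.85 (adjusted p = 0.0289). It is named on that 1 fit and counts among the 7 of 9 that fell there. A gene so near the filter can pass it through the libraries of 1 day alone, so the direction of its change adds no support. Against control, in MMP2sh1 cells 3, 2 and 3 were higher and 0, 0 and 1 lower of 9, 9 and 8 tested, and in MMP2sh2 cells 4, 3 and 2 were higher and none lower of 8, 9 and 8 tested. TSPAN10 was above control in both hairpin lines at day −2 and below it in MMP2sh1 cells at day +2, with log2 differences of 0.46 ± 0.11, 0.21 ± 0.12 and −0.41 ± 0.13 in MMP2sh1 cells (called at days −2 and +2 with adjusted p = 0.00806 and 0.0252) and 0.51 ± 0.10, 0.49 ± 0.12 and −0.04 ± 0.12 in MMP2sh2 cells (called at days −2 and 0 with adjusted p = 0.00186 and 0.00329). Those of RHBDF2, the other inactive rhomboid of ADAM17, were 0.42 ± 0.07, 0.30 ± 0.07 and 0.36 ± 0.07 in MMP2sh1 cells (called at all 3 days with adjusted p = 0.000251, 0.00319 and 0.000364) and 0.24 ± 0.08, 0.21 ± 0.07 and 0.03 ± 0.08 in MMP2sh2 cells (called at day −2 with adjusted p = 0.0431). TSPAN5, also a tetraspanin of ADAM10, was above control in both hairpin lines at days 0 and +2, with −0.02 ± 0.06, 0.32 ± 0.05 and 0.36 ± 0.06 in MMP2sh1 cells (called at days 0 and +2 with adjusted p = 4.16e-05 and 0.0001) and 0.10 ± 0.06, 0.45 ± 0.05 and 0.31 ± 0.06 in MMP2sh2 cells (called at days 0 and +2 with adjusted p = 1.7e-07 and 0.000541).

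Of 15 ligands and receptors that ADAMs shed, 6, 4 and 4 rose and 9, 8 and 9 fell in the 3 expansions, with median log2 changes of −0.30, −0.15 and −0.42. EREG and TGFA, ligands of the epidermal growth factor receptor that ADAM17 releases, rose with log2 changes of 3.5, 3.89 and 3.80 and of 3.35, 2.72 and 2.48. NRG1, a neuregulin shed by ADAM17 and ADAM19, fell with −3.25, −3.44 and −3.19. For this list, in MMP2sh1 cells 3, 5 and 3 were higher and 2, 3 and 2 lower of 14, 15 and 15 tested, and in MMP2sh2 cells 2, 4 and 1 were higher and 0, 2 and 1 lower of 14, 14 and 15 tested. The log2 differences of NRG1 from control were 0.90 ± 0.09, 0.90 ± 0.09 and 0.71 ± 0.24 in MMP2sh1 cells (called at all 3 days with adjusted p = 5.12e-08, 3.04e-09 and 0.0422) and 0.40 ± 0.09, 0.41 ± 0.10 and 0.47 ± 0.24 in MMP2sh2 cells (called at days −2 and 0 with adjusted p = 0.00417 and 0.00435). AREG, a further ligand of that receptor, had 1.24 ± 0.33, 0.26 ± 0.59 and 0.80 ± 0.51 in MMP2sh1 cells (called at day −2 with adjusted p = 0.0132), with values from 0.04 to 0.49 in MMP2sh2 cells, called at no day. IL6R, the shed receptor of interleukin-6, was above control in both hairpin lines at day 0, with 0.20 ± 0.14, 0.68 ± 0.19 and 0.41 ± 0.26 in MMP2sh1 cells (called at day 0 with adjusted p = 0.0132) and −0.33 ± 0.15, 0.71 ± 0.20 and 0.49 ± 0.26 in MMP2sh2 cells (called at day 0 with adjusted p = 0.0129). Of 6 genes of proprotein convertases and thrombospondin-repeat glycosylation, 2 rose and 3 fell in each expansion, with medians of −0.11, −0.13 and −0.20. PCSK5, a convertase that removes prodomains, rose with 0.75, 1.03 and 1.16, and PCSK7 fell with −0.48, −0.34 and −0.43. PCSK6 had −0.11, −1.08 and −0.91, called in the hairpin lines. Of these 6, in MMP2sh1 cells 0, 1 and 1 were higher and 1, 1 and 0 lower of 6 tested, and in MMP2sh2 cells none were higher and 1, 1 and 0 lower of 6 tested. PCSK5 was below control in both hairpin lines at days −2 and 0, and it differed by −0.47 ± 0.10, −0.35 ± 0.09 and −0.19 ± 0.08 in MMP2sh1 cells (called at days −2 and 0 with adjusted p = 0.00282 and 0.00628) and −0.40 ± 0.09, −0.28 ± 0.09 and 0.02 ± 0.08 in MMP2sh2 cells (called at days −2 and 0 with adjusted p = 0.0079 and 0.0273). FURIN, a convertase of the Golgi, differed by 0.14 ± 0.06, 0.23 ± 0.04 and 0.33 ± 0.05 in MMP2sh1 cells (called at days 0 and +2 with adjusted p = 0.000333 and 2.4e-05), with values from −0.01 to 0.07 in MMP2sh2 cells, called at no day.

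Among 7 genes of inhibition and clearance, 3 of 6 tested rose in control and 4 of 6 in each hairpin line, while 2, 1 and 1 fell, with median log2 changes of 0.27, 0.37 and 0.31. A2M, a broad trap of proteinases, rose with log2 changes of 4.49, 5.42 and 4.08. TIMP1 rose with 1.54, 1.61 and 1.25, and TIMP3, the inhibitor most active on ADAM and ADAMTS proteins, fell with −0.36, −0.60 and −0.73. Here in MMP2sh1 cells none were higher and 1, 2 and 1 lower of 6 tested, and in MMP2sh2 cells 2, 0 and 0 were higher and 0, 1 and 2 lower of 6 tested. A2M differed from control by −1.33 ± 0.16, −1.07 ± 0.09 and −0.38 ± 0.06 in MMP2sh1 cells (called at all 3 days with adjusted p = 2.72e-06, 2.29e-11 and 1.85e-05) and −0.10 ± 0.12, −0.47 ± 0.08 and −0.50 ± 0.06 in MMP2sh2 cells (called at days 0 and +2 with adjusted p = 5.75e-05 and 5.67e-08). TIMP2 differed by −0.12 ± 0.06, −0.30 ± 0.04 and −0.09 ± 0.05 in MMP2sh1 cells (called at day 0 with adjusted p = 3.97e-07) and 0.27 ± 0.05, −0.05 ± 0.04 and 0.06 ± 0.05 in MMP2sh2 cells (called at day −2 with adjusted p = 0.00201). TIMP3 differed by 0.18 ± 0.06, 0.05 ± 0.06 and −0.18 ± 0.07 in MMP2sh2 cells (called at day −2 with adjusted p = 0.0446), and its values ran from −0.08 to 0.16 in MMP2sh1 cells, called at no day. Of 10 ADAMTS substrates 2 of 8, 4 of 9 and 2 of 8 tested rose and 3, 2 and 2 fell, with medians of −0.14, 1.19 and 0.05. ACAN, encoding aggrecan, fell with −1.78, −2.13 and −1.75, whereas COL3A1, the procollagen III gene, rose with 0.98, 1.59 and 0.57. VCAN, encoding versican, had 1.15, 1.42 and 0.59, called in control and MMP2sh1 cells. Of the substrates, in MMP2sh1 cells 1, 0 and 2 were higher and 1, 1 and 1 lower of 7, 8 and 8 tested, and in MMP2sh2 cells 2, 0 and 1 were higher and 1, 2 and 1 lower of 8 tested. COL3A1 was below control in both hairpin lines at every day, and it differed by −1.79 ± 0.10, −1.66 ± 0.07 and −1.17 ± 0.07 in MMP2sh1 cells (called at all 3 days with adjusted p = 6.05e-12, 1.78e-18 and 3.31e-13) and −0.40 ± 0.08, −0.82 ± 0.06 and −0.81 ± 0.07 in MMP2sh2 cells (called at all 3 days with adjusted p = 0.00205, 2.1e-12 and 6.63e-11). BCAN, encoding brevican, was above control in both hairpin lines at day +2, and it differed by −0.29 ± 0.14, 0.02 ± 0.16 and 1.03 ± 0.12 in MMP2sh1 cells (called at day +2 with adjusted p = 2.34e-07) and −0.37 ± 0.15, 0.22 ± 0.16 and 0.53 ± 0.14 in MMP2sh2 cells (called at day +2 with adjusted p = 0.0111). ACAN differed by 0.34 ± 0.11, 0.04 ± 0.11 and −0.01 ± 0.17 in MMP2sh1 cells (called at day −2 with adjusted p = 0.0473) and 0.36 ± 0.10, 0.21 ± 0.10 and 0.39 ± 0.15 in MMP2sh2 cells (called at day −2 with adjusted p = 0.0174).

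Of the 7 microfibril partners of the ADAMTS10, ADAMTS17 and ADAMTSL proteins, 6 rose in control and MMP2sh1 and 5 in MMP2sh2 cells during the expansion, and FBN2 fell in each. The median log2 change was 0.50, 0.95 and 0.45. FN1, encoding fibronectin, rose with log2 changes of 2.07, 2.64 and 1.82, LTBP3 with 1.99, 2.16 and 1.45 and LTBP1 with 0.50, 1.00 and 0.68. Compared with control, in MMP2sh1 cells 0, 1 and 2 were higher and 5, 5 and 2 lower of 7 tested, and in MMP2sh2 cells 1, 0 and 1 were higher and 1, 2 and 1 lower of 7 tested. FN1 was lower in MMP2sh1 cells at days −2 and 0 and higher at day +2, and it differed from control by −0.39 ± 0.12, −0.23 ± 0.05 and 0.19 ± 0.05 in MMP2sh1 cells (called at all 3 days with adjusted p = 0.0307, 0.00262 and 0.0127), with values from −0.11 to 0.14 in MMP2sh2 cells, called at no day. FBN2, a fibrillin, differed by −0.68 ± 0.07, −0.73 ± 0.05 and −0.56 ± 0.08 in MMP2sh1 cells (called at all 3 days with adjusted p = 6.05e-08, 4.24e-12 and 5.56e-06), with values from −0.01 to 0.15 in MMP2sh2 cells, called at no day. LTBP3 differed by −0.39 ± 0.10, −0.31 ± 0.05 and −0.21 ± 0.06 in MMP2sh1 cells (called at all 3 days with adjusted p = 0.0112, 1.86e-05 and 0.00995) and 0.33 ± 0.07, −0.06 ± 0.05 and −0.20 ± 0.06 in MMP2sh2 cells (called at days −2 and +2 with adjusted p = 0.00294 and 0.0437). LTBP1 was below control in both hairpin lines at days −2 and 0, and it differed by −0.51 ± 0.08, −0.34 ± 0.06 and 0.00 ± 0.06 in MMP2sh1 cells (called at days −2 and 0 with adjusted p = 0.000161 and 3.9e-05) and −0.25 ± 0.07, −0.31 ± 0.06 and −0.07 ± 0.06 in MMP2sh2 cells (called at days −2 and 0 with adjusted p = 0.0257 and 0.000192).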

How the data were processed

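Per the labels and the methods of the study, the authors sequenced poly(A)-selected mRNA of 27 libraries as paired reads, ran Trim Galore (0.6.0) on them, mapped the reads to hg19 using STAR (2.7.3a), and obtained counts per gene from HTSeq (2.0.0), without use of strand and in union mode. The deposited values are these raw counts, with no normalization. The 5 HTSeq summary lines, 16.8 to 19.1% of all counted reads in each library, were left out of library sizes and tests. No count column was left unmapped to a sample.

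From the counts, genes were filtered with edgeR (4.0.16, R 4.3.3) at a minimum count of 10 and total of 15, scaled by TMM and tested with the quasi-likelihood test, each comparison on its own 6 libraries and each interaction on 12, with Benjamini-Hochberg adjustment over all genes tested and a threshold of 0.05. A gene with few reads could pass this filter through the libraries of the group with its higher level alone, so the direction of its change is not separate from the filter. SEs were taken from the log2 fold change and its F statistic. Lengths and positions came from GENCODE v44lift37 (GRCh37, canonical transcript), and promoters from RefSeq. The annotation version the authors counted against is not given in the sources used here. Full values are given for the 5 genes with the highest mean RPKM, genes changed at least 2-fold with the same sign in all 3 expansions, genes called with the same sign in both hairpin lines at 1 day or in a line at all 3 days, genes with a called interaction and genes with opposite steps. Of each list of partners up to 3 genes are named, those with the largest mean absolute log2 fold change over the 3 expansions, and likewise over the 6 hairpin comparisons, among genes called in at least 1 of them. Each mean covers only the comparisons in which the gene was tested. The genes and lists were chosen with earlier results of these data known. On simulated data with 200 genes changed 2-fold, the day −2 fit called 148 with 4 others of 18419 genes, and the interaction 120 with 5 others of 19912. Alternatives were DESeq2 (1.42.0), median-of-ratios scaling, no filter, all 27 libraries in 1 fit, a replicate block and each library left out in turn. The gene totals per library limit precision for genes with few reads, and no pair of replicates agreed within sampling noise (chi-square per degree of freedom 4.58 to 22.2 over 27 pairs). Scripts used Python (3.11.15) and pandas (2.3.3).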

Additional observations from a re-analysis of the deposited data

Results flagged for a closer look

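The expansion of a hairpin line differed from that of control cells, by an interaction test over 12 libraries (edgeR, adjusted p under 0.05), for 7 genes in each line. In MMP2sh1 cells the difference of the log2 changes was −1.15 for ADAMTSL4, 0.31 for ADAM19, 0.33 for ADAM9, 0.45 for ADAM23, 0.50 for ADAMTS12, 0.54 for ADAMTSL1 and 0.64 for ADAMTS6. In MMP2sh2 cells it was −0.65 for ADAMTSL4, −0.45 for ADAMTS2, 0.28 for ADAM10, 0.33 for ADAM9, 0.48 for ADAMTSL1, 0.52 for ADAM12 and 1.14 for ADAMTS6. Both interactions use the 6 control libraries of days −2 and +2, so genes called in both are not independent of each other. Of the 14 calls, 8 were lost in at least 1 fit that left out a library. The calls of ADAM23 in MMP2sh1 and of ADAMTS2 in MMP2sh2 cells were lost in 8 of 12 such fits each.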

How the results depend on the processing

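Of 268 called values of these genes over the 17 comparisons, 260 kept their call with DESeq2, 260 with all 27 libraries in 1 fit, 266 without the filter and 268 with median-of-ratios scaling, and none reversed. With 1 library left out, 140 of 1692 fits lost a call. Lost in at least 1 such fit were 11 of 42 calls against control, 8 of 14 interaction calls and 33 of 212 calls between days of a line. Numbers of called genes then ran from 8 to 10, 6 to 10 and 6 to 9 for MMP2sh1 against control at days −2, 0 and +2, and from 4 to 6, 5 to 8 and 4 to 5 for MMP2sh2. For the expansions they ran from 27 to 30, 25 to 29 and 28 to 30 in control, MMP2sh1 and MMP2sh2 cells, and for the interactions from 4 to 8 and 2 to 7. The lowest were 4 without control day −2 replicate 1 and 2 without control day +2 replicate 3. Same-numbered libraries did not deviate together (correlations −0.025 to 0.026 over 15 comparisons), so the numbers were not taken to pair the samples. With the replicate block 264 of 268 values kept their call, and the numbers of called genes stayed within 1.5 times of those without it. Of the group mean levels 334 stayed within 1 SD when scaled by plain totals and 37 moved by more. Lengths over all exons, chosen after seeing the data, changed the order of the most abundant genes as given above.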
